A study of Rattus norvegicus with 9 samples.

Results

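The genes of the ionotropic and metabotropic glutamate receptors and of the GABA receptors were followed in rat cortical neurons whose firing had been silenced and then allowed to return. The members were chosen by name alone: every rat gene on the array called Gria, Grik, Grin, Grid or Grm followed by a digit, or named as a GABA receptor subunit (Gabr and a letter, Gabbr and a digit). This gave 47 genes with 58 probes, out of 35561 named features with 41012 probes on the array. Of the 47, 27 belong to the glutamate group and 20 to the GABA group. The glutamate group holds 1 gene that is not a receptor: it encodes a protein that binds one, and it matched the name pattern.

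Each of the 3 groups was measured on 3 single-colour arrays, 9 in all. All cultures came from cortices of prenatal rats (strain, sex and genotype are not given in the sources used here), were used at 11 to 15 days in culture, and spent 48 h with tetrodotoxin (TTX), which silences neurons by closing their sodium channels to firing. Cells of the TTX group were collected at the end of this time. Cells of the W15 and W45 groups were first washed 3 times with regular medium and collected 15 min and 45 min later. All groups thus share the toxin, and the comparison is between silenced neurons and neurons soon after release, with no never-silenced neurons among the arrays. No wash is recorded for the TTX group, so effects of the wash and of the return of firing cannot be told apart. The cells are labelled as mature neurons, but a dissociated cortical culture also holds glia, and the medium supplement was B27 or NS21, with no record per sample. Nothing in the labels tells if the replicates were grown separately, and p-values therefore measure the spread between these samples, which may be technical.

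Glutamate carries most fast excitation in the cortex and GABA most fast inhibition. AMPA and kainate receptors are cation channels opened by glutamate. NMDA receptors also need a co-agonist and relief from magnesium block, and admit calcium. The metabotropic glutamate receptors and the GABA-B receptor act through G proteins, whereas the GABA-A receptor is a pentameric chloride channel, most often of alpha, beta and gamma together. Long blockade of firing with TTX is a standard way to evoke homeostatic scaling, in which neurons raise the number of AMPA receptors at their synapses. Several receptor genes are also known for regulation by activity over hours to days, and the arrays sample the first minutes after firing can resume.

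On each array, 72.4 to 77.9% of probes were detected well above background. The signal's 75th percentile was 1563 on the dimmest array and 2526 on the brightest. The number of arrays limits the precision. All 6 neuron markers examined were above background on all 9 arrays, as were 5 of 6 astrocyte markers (Gfap, Aqp4 and others) and 6 of 6 oligodendrocyte-lineage markers, so the label of neurons does not describe every cell. Of 6 microglia markers, 1 was above background on all 9 arrays and 2 (Aif1 and Cx3cr1) on none. Of 6 endothelial markers, 3 were above background on all 9 arrays and 1 (Tek) on none. The summed astrocyte level, on the log2 scale relative to the 75th percentile, ranged from 3.87 to 4.32 in TTX, 3.68 to 4.29 in W15 and 4.05 to 4.11 in W45, and the summed neuron level from 6.60 to 6.93, 6.73 to 6.99 and 6.55 to 6.92. In such bulk RNA, fewer cells of a type and less RNA per cell cannot be told apart. The groups did not fill the 3 slides evenly: TTX replicates 2 and 3 were alone on slide 2, an array of each group (TTX replicate 1, W15 replicate 3, W45 replicate 1) was on slide 1, and the other W15 and W45 arrays were on slide 3. A pair of W45 arrays stood apart. Leaving out W45 replicate 1 raised the number of features called among all those tested from 54 to 167 at 45 min against TTX. In W45 replicate 2, probes that were above background on no array had a median log2 signal of -8.24, against -9.48 to -8.83 on the other arrays. The transcriptional response itself was large: Fos, the usual marker of active neurons, was higher by 4.86 ± 0.33 on the log2 scale at 15 min and by 6.61 ± 0.33 at 45 min (SE, n = 3 per group, limma). Egr1 was higher by 2.10 and 4.19 and Arc by 1.68 (not called) and 5.32. Among 6 activity control genes, limma's adjusted test called 4 at 15 min and 6 at 45 min. Npas4 was among both, but it was not above background in TTX and is given no fold here.

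The first question is whether any receptor mRNA changed in the first 15 or 45 min after washout. No receptor gene passed the test at either time. Of the 26 glutamate and 16 GABA group genes tested, limma called 0 at 15 min against TTX (0.0233% of all 25805 features were called), 0 at 45 min against TTX (0.209% of all features) and 0 between 45 and 15 min (0.132% of all features). A call means that limma's p, adjusted by Benjamini-Hochberg for all features in the test, was under 0.05. The lowest adjusted p of any receptor gene was 0.769, for Gabrb2 between 45 and 15 min, named here for that value. Before adjustment, 1 receptor gene had p under 0.05 at 15 min (Gabra3, lower), 1 at 45 min (Grin2b, higher) and 0 between the times, where 3.3%, 6.33% and 6.63% of all features did. In 22 further fits with a test, 0 of 2700 receptor tests passed the adjusted threshold.

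The absence of calls can be read with the width of the intervals. The 95% interval of the fold change, taken gene by gene without adjustment, stayed inside a 2-fold change in either direction for 25 of the 26 glutamate group genes at 15 min and for 25 at 45 min. The exception at both times was Gria1. Inside 1.5-fold, there were 14 and 16 of these genes. For the GABA group, whose genes scattered more between arrays, 12 of 16 intervals lay inside 2-fold at 15 min and 14 at 45 min. Only 6 and 4 lay inside 1.5-fold. The median standard deviation between arrays of a group was 0.24 on the log2 scale for the glutamate group, 0.31 for the GABA group and 0.23 over all features.

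**Figure D1:**
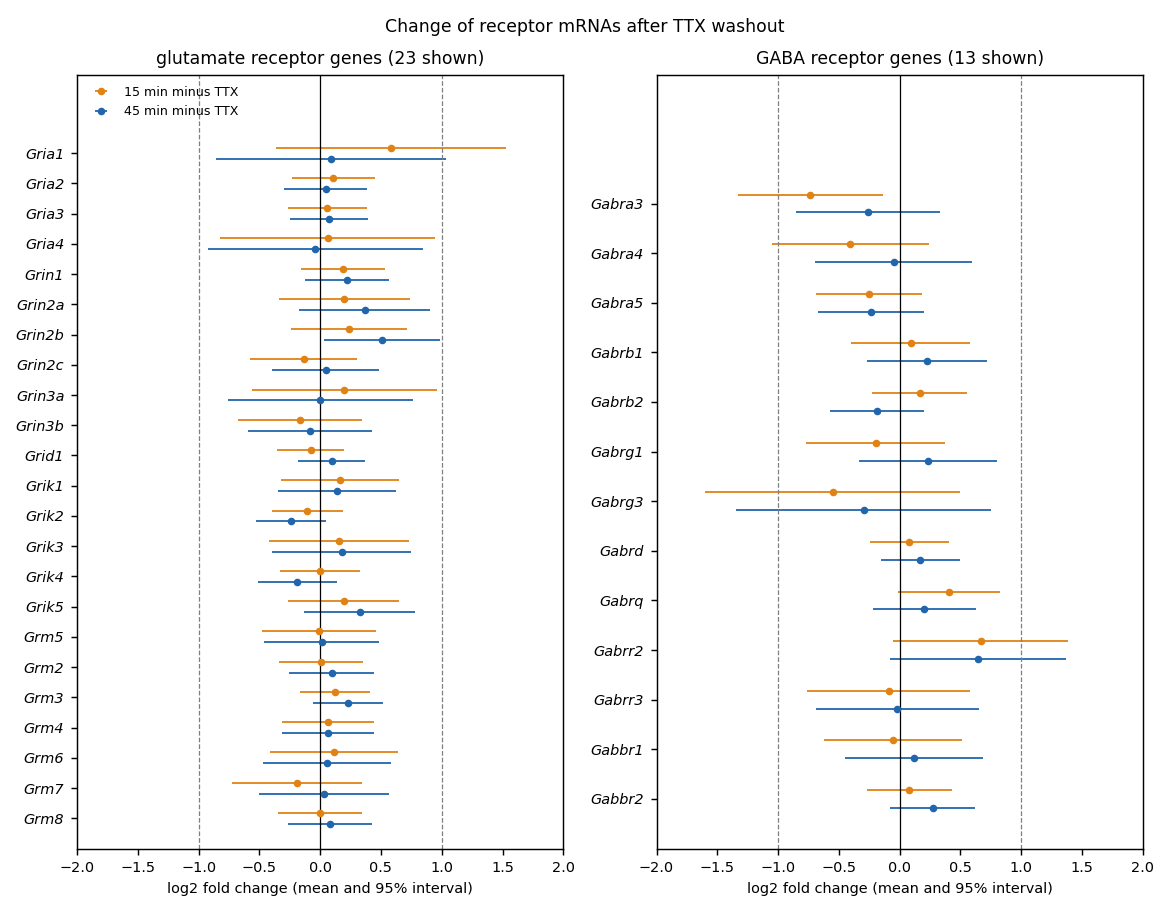
Log2 fold change (x axis) of glutamate receptor genes (left) and GABA receptor genes (right) at 15 min (orange) and 45 min (blue) after washout against TTX; points are means of 3 arrays against 3, bars are 95% intervals from limma, and dashed lines mark 2-fold. Nearly all intervals cross 0, and those of Gabra3 at 15 min and Grin2b at 45 min lie just to one side of it.

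**Figure D2:**
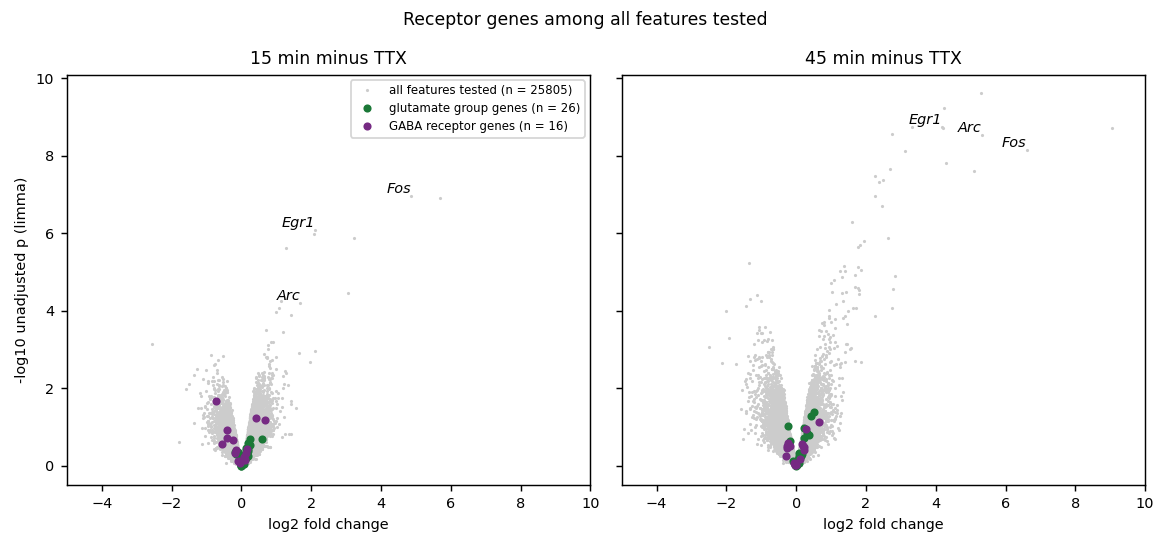
Log2 fold change (x axis) against -log10 of limma's unadjusted p (y axis) for all 25805 features (grey), with glutamate group genes in green and GABA receptor genes in purple. The 42 receptor group genes lie in the body of the cloud at both times, while Fos and Egr1 stand far above it. Arc does so at the later time, and limma's adjusted test did not call it at the earlier time.

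As groups, the families lay close to all genes. The median log2 fold change of the glutamate group was 0.09 at 15 min and 0.07 at 45 min, beside 0.05 and 0.05 over all features. That of the GABA group was -0.07 and -0.02. Of the glutamate group genes, 17 of 26 had a fold change above 0 at 15 min and 21 at 45 min, and 7 of 16 GABA genes did at each time, where 60.4% and 59.4% of all features did. These medians depend on how arrays were scaled to each other. Leaving out the scaling moves every gene of a comparison by the same amount, and the median of all features was then -0.15 and -0.21. It moved to 0.21 and 0.12 when the background was corrected by normexp, a model of signal plus noise. Relative to all features, the GABA median at 15 min lay 0.12 lower as reported and 0.17 lower with normexp. It lay 0.02 higher when W15 replicate 3 was left out. Between slides, the GABA median at 15 min was -0.20 with slide as a block and -0.18 on slide 1 alone. For both values, TTX replicate 1 stands for its group, since no other TTX array shares a slide with washed cultures.

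The AMPA receptor subunits Gria1 to Gria4 form the channel behind most fast excitation, and Gria2 is the subunit whose edited form blocks calcium entry. None was called. Gria2 (NM_017261, probe at rn3 chr2:172216995-172217054) had log2 signals of 2.73, 2.41 and 2.51 in TTX, 2.83, 2.55 and 2.60 in W15, and 2.80, 2.44 and 2.54 in W45. The groups overlapped fully, and the log2 fold change was 0.11 ± 0.15 at 15 min and 0.04 ± 0.15 at 45 min (SE, n = 3 per group). Gria3 was as tight, with 0.06 ± 0.14 and 0.07 ± 0.14. Gria1 (NM_031608, for which the files give no position) scattered far more, at -3.35, -2.33 and -2.90 in TTX, -2.72, -1.54 and -2.56 in W15, and -2.40, -2.35 and -3.57 in W45. A single array, W15 replicate 2, stood above the rest, and the lowest value of all was in W45. Its log2 fold change at 15 min was 0.58 ± 0.42, the largest of the glutamate group, with a 95% interval from -0.37 to 1.53, and it was 0.22 without W15 replicate 2. At 45 min it was 0.09 ± 0.42. Gria4, whose signals ranged from -1.01 to 0.61 within W15 alone, had 0.06 ± 0.39 and -0.04 ± 0.39. The same W15 array gave the highest Gria4 signal.

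The NMDA receptor joins the obligatory subunit Grin1 with Grin2 subunits that set its kinetics. In cortex Grin2b dominates early in life and Grin2a joins it as synapses mature. Grin2b (NM_012574, chr4:172967545-172967604) was at -4.14, -3.90 and -3.69 in TTX, -3.53, -3.47 and -4.02 in W15, and -3.05, -3.52 and -3.64 in W45. All 3 W45 arrays lay above all 3 TTX arrays, by a narrow margin, while W15 overlapped both. Of all features, 7.96% were separated upward in this way. The mean went from -3.91 ± 0.23 in TTX to -3.40 ± 0.31 in W45 (SD, n = 3), a log2 fold change of 0.51 ± 0.21 or 1.42-fold, with a 95% interval from 1.02-fold to 1.98-fold. Limma's adjusted p was 0.777. The fold change was between 0.33 and 0.63 with any 1 array left out. It was 0.74 with slide as a block and 1.09 on slide 1 alone, where TTX replicate 1 alone stands for TTX. An unadjusted p under 0.05 was found in 13 of 21 alternative fits, and the lowest adjusted p among them was 0.45. At 15 min the fold change of Grin2b was 0.24 ± 0.21.

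Grin1 (NM_017010, chr3:3453883-3453942) had signals of 1.98, 2.18 and 2.18 in TTX, 2.08, 2.47 and 2.37 in W15, and 2.14, 2.51 and 2.36 in W45, with fold changes of 0.19 ± 0.15 and 0.22 ± 0.15. The groups overlapped. Grin2a had 0.20 ± 0.24 and 0.37 ± 0.24, the third largest of the glutamate group at 45 min. Of the subunits that the naming rule leaves out, mentioned here with their values already known, the modulatory Grin3a and Grin3b had fold changes between -0.17 and 0.20, and Grin2c between -0.14 and 0.05. The median over the 6 NMDA subunits tested was 0.19 at 15 min and 0.13 at 45 min. Grin2d was above background on all 9 arrays but was not tested, because the scanner software marked its spot as an outlier on 7 of them. With the marked spots kept, its fold changes were 0.27 ± 0.18 and 0.05 ± 0.18, and neither was called.

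Kainate receptors (Grik1 to Grik5) tune release and excitability, and the delta receptors act mainly as synapse organisers. Grik2 (NM_019309, chr20:53259323-53259382) was at -0.12, -0.14 and -0.17 in TTX, -0.16, -0.34 and -0.23 in W15, and -0.48, -0.47 and -0.18 in W45. All 3 W45 arrays lay below TTX, W45 replicate 3 only just, and 3.5% of all features were separated downward in this way. The log2 fold change at 45 min was -0.24 ± 0.13 (limma, adjusted p = 0.815), and at 15 min it was -0.10 ± 0.13. The other kainate subunits, chosen for mention after their values were seen, lay between -0.19 (Grik4, at 45 min) and 0.32 (Grik5, at 45 min).

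**Figure D3:**
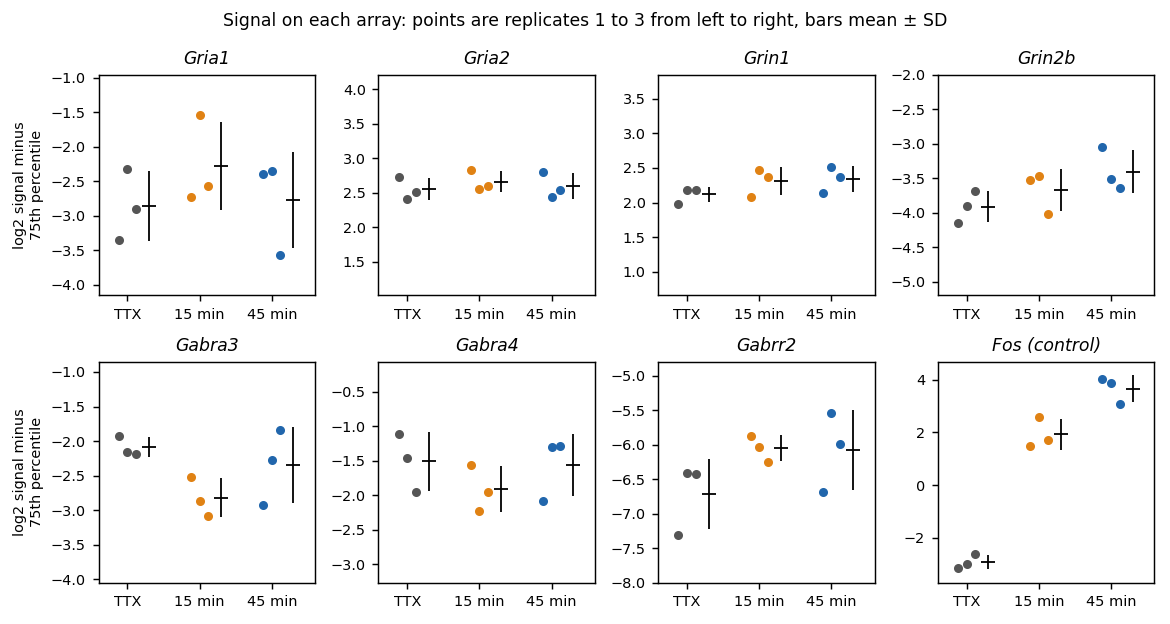
Log2 signal minus the array's 75th percentile (y axis) on each of the 9 arrays for 7 receptor genes and Fos, by group (x axis); points are the 3 replicates, and black marks are the mean ± SD. All receptor panels have the same span and the Fos panel a wider one; Fos separates the 3 groups, whereas the receptor groups overlap or nearly touch.

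The metabotropic glutamate receptors varied little. The group I receptor Grm5, which couples to phospholipase C and drives postsynaptic plasticity, had fold changes of -0.01 ± 0.21 at 15 min and 0.01 ± 0.21 at 45 min. Over the 8 receptors the fold changes ranged from -0.19 to 0.13 at 15 min and from -0.01 to 0.23 at 45 min, and every interval lay inside a 2-fold change. At 45 min all 8 intervals lay inside 1.5-fold. The highest was Grm3, a group II receptor that lowers cyclic AMP, named here because its arrays separated: it was at 0.01, -0.03 and 0.06 in TTX and at 0.07, 0.28 and 0.37 in W45. Of all features, 7.96% were separated upward in this way. The Grm3 fold change of 0.23 ± 0.13 turned to -0.03 with normexp. Grm7, a presynaptic group III receptor, had -0.19 ± 0.24 and 0.03 ± 0.24.

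Several of these genes are read by a second probe made to a splice variant, and the probe sequences show what was measured. Sequences are from the array files, 5′ to 3′, with positions in rn3. The Grin1 probe to the clone NMDAR1-4b (U08268, chr3:3471906-3472908) maps across 1003 genomic bases for its 60 bases, so it crosses an exon junction. For Grm7 the reference probe (NM_031040, chr4:147333218-147446056) spans a junction and that to mGluR7b (X96790, chr4:147451535-147451594) does not. For Grm8 the reference probe (NM_022202, chr4:54207890-54214387) and that to mGluR8b (Y11153, chr4:54207858-54214300, first 30 bases shown) share a stretch of 18 bases, in capitals, and differ before it.
Grin1, NMDAR1-4b: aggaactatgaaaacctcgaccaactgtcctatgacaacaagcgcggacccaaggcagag
Grm7, reference: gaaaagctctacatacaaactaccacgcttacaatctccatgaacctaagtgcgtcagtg
Grm7, mGluR7b: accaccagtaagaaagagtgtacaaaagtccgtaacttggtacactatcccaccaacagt
Grm8, reference: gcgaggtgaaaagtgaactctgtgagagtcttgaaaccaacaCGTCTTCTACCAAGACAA
Grm8, mGluR8b: cctaatagatCGTCTTCTACCAAGACAAca
The variant probes gave no call either. The log2 fold change at 15 and 45 min was 0.38 ± 0.50 and 0.51 ± 0.50 for the NMDAR1-4b probe. It was 0.00 ± 0.14 and 0.15 ± 0.14 for mGluR7b, and -0.05 ± 0.19 and 0.10 ± 0.19 for mGluR8b. The NMDAR1-4b probe was highest in W45 replicate 3, at -1.46 against -3.81 to -2.53 on the other arrays. In all, 9 receptor genes had 2 tested probes. The pair had the same sign in 6 of 9 genes at each time, and their fold changes differed by a median of 0.19 at 15 min and 0.14 at 45 min, and at most by 0.42 and 0.36.

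Among the GABA-A receptor subunits, the alpha subunits carry the benzodiazepine and GABA sites together with gamma and beta partners, and Gabra3 is prominent in immature cortex. Gabra3 (NM_017069, chrX:158490096-158495925) gave the lowest fold change of all receptor genes. It was at -1.92, -2.15 and -2.19 in TTX, -2.52, -2.86 and -3.08 in W15, and -2.93, -2.27 and -1.84 in W45. All 3 W15 arrays lay below all 3 TTX arrays, as for 3.79% of all features, and the W45 arrays spread over the whole range of both. The mean went from -2.09 ± 0.14 in TTX to -2.82 ± 0.29 in W15 and -2.35 ± 0.55 in W45 (SD, n = 3). The log2 fold change at 15 min was -0.73 ± 0.26, which is 0.601 of the TTX level with a 95% interval from 0.399 to 0.907. Limma's adjusted p was 0.9996, and the lowest adjusted p under any alternative was 0.56. The value was -0.36 with normexp and between -0.89 and -0.60 with any 1 array left out. With slide as a block it was -1.32 and on slide 1 alone -1.16, where TTX replicate 1 alone stands for TTX. At 45 min it was -0.26 ± 0.26.

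Of the other alpha subunits, Gabra4 and Gabra5 lay on the same side at 15 min without passing any threshold. Gabra4 had -0.41 ± 0.29 and -0.05 ± 0.29, and Gabra5, named after its values were seen, -0.25 ± 0.19 and -0.24 ± 0.19. Gabra3, Gabra4 and Gabra5 stayed below 0 at 15 min with normexp (-0.36, -0.20 and -0.21) and with slide as a block (-1.32, -1.08 and -0.50). In the slide fit TTX replicate 1 alone stands for its group, and it had the highest TTX signal for each of these genes. Members of 1 family share arrays, so this common side is not a set of separate observations. Of the beta subunits, which every such receptor needs, Gabrb1 and Gabrb2 lay above 0 at 15 min and did not share it. Gabrb1 had 0.09 ± 0.22 and 0.23 ± 0.22, and Gabrb2 0.16 ± 0.17 and -0.19 ± 0.17. With slide as a block, however, Gabrb2 lay below 0 at 15 min (-0.10), and Gabrb1 stayed above it (0.34).

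The gamma subunits anchor receptors at synapses. Gabrg1 had -0.20 ± 0.25 and 0.23 ± 0.25. Gabrg3 had -0.55 ± 0.46 and -0.30 ± 0.46, values that rest on a single bright array, TTX replicate 2, at -4.25 against -6.42 to -5.49 on the other arrays. Without that array its fold change at 15 min was 0.07, and with normexp it was 0.36.

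GABA-A genes sit in clusters in the genome, and neighbours can be compared. By their probe positions, Gabrb1, Gabra4 and Gabrg1 lie within chr14:38532824-39953549, and Gabre, Gabra3 and Gabrq within chrX:158426749-158929381. At 15 min, the members of these clusters did not share a side. In the first, Gabrb1 had a fold change of 0.09 at 15 min, Gabra4 -0.41 and Gabrg1 -0.20. On the X chromosome Gabra3 had -0.73 while Gabrq, the theta subunit, named here for its position, had 0.40 ± 0.19. From 15 to 45 min, all 3 genes of the first cluster lay above 0 (0.14 to 0.43). Gabra3 and Gabrq then lay on opposite sides, at 0.47 and -0.20. With so few genes this is a description, and no difference between neighbours was tested.

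The rho subunits, known mainly from retina, gave the highest fold change of the GABA genes. Gabrr2 (NM_017292, chr5:49387121-49387180) was at -7.31, -6.41 and -6.43 in TTX, -5.88, -6.03 and -6.25 in W15, and -6.69, -5.54 and -5.99 in W45. W15 lay above TTX, as for 9.68% of all features. These are signals near the limit of detection, and TTX replicate 1, the lowest, was not above background. Gabrr2 thus entered the test only through the W15 and W45 groups, where it was higher. Its separation and fold changes are therefore given as a description. The fold change was 0.67 ± 0.32 at 15 min and 0.64 ± 0.32 at 45 min (limma, adjusted p = 0.795 at 45 min). Without TTX replicate 1 these were 0.37 and 0.35. For completeness, Gabrr3 had -0.09 ± 0.30 and -0.02 ± 0.30, and Gabrd, the subunit of tonic receptors outside synapses, 0.08 ± 0.14 and 0.17 ± 0.14. Gabra6, Gabrp and Gabrr1, subunits typical of cerebellar granule cells, of tissues outside the brain and of retina, were above background on no array. Gabre, the epsilon subunit, was above background on 1, W45 replicate 2, the array on which these dim probes were all at their highest. Gabra6, for example, was at -6.86 there and between -9.58 and -7.90 on the other arrays. The part that the raised dim signal of this array has in these values was not tested.

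The GABA-B receptor is an obligate pair of Gabbr1, which binds GABA, and Gabbr2, which couples to the G protein. Gabbr1 (NM_031028, chr20:1554609-1554668) was at 2.23, 2.33 and 2.31 in TTX, 2.44, 2.70 and 1.57 in W15, and 2.40, 2.34 and 2.50 in W45. The W45 arrays lay above TTX, only just, as for 7.96% of all features, and W15 replicate 3 lay far below every other array. The fold change was -0.06 ± 0.25 at 15 min and 0.12 ± 0.25 at 45 min. Gabbr2 (NM_031802, chr5:63242237-63242297) was at 3.47, 3.64 and 3.75 in TTX and at 4.04, 3.96 and 3.66 in W45. Its fold change was 0.08 ± 0.15 and then 0.27 ± 0.15, with the groups overlapping.

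**Figure D4:**
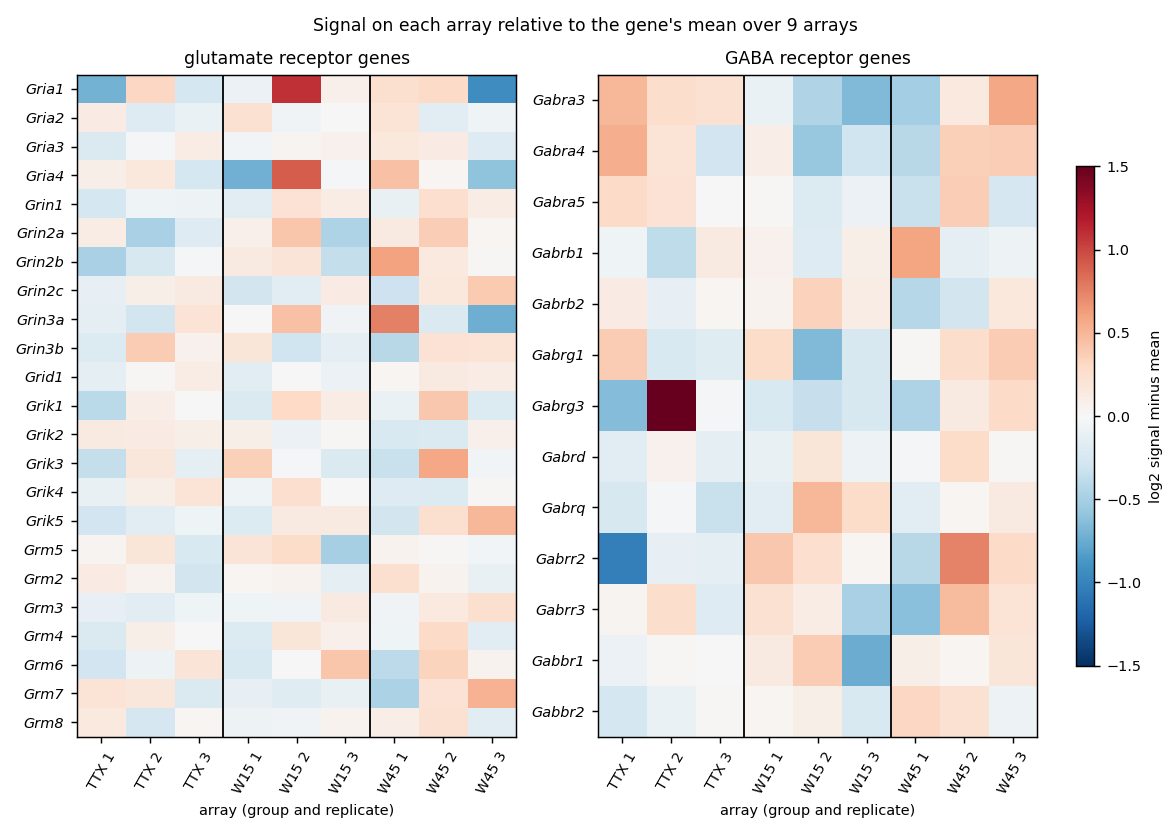
Log2 signal of tested genes on each array (columns) minus the gene's mean over the 9 arrays, for the glutamate receptors (left) and the GABA receptors (right); red is above and blue below the gene's mean, and black lines part the groups. Many genes vary as much within a group as between groups, and W45 replicate 1 is bluer than W45 replicates 2 and 3 for the GABA receptors.

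The spread of the GABA receptor genes within W45 followed the arrays. Taking each gene's deviation from its mean, the median over the 16 genes was -0.32 in W45 replicate 1, 0.20 in replicate 2 and 0.17 in replicate 3. For the 26 glutamate group genes these medians were -0.03, 0.17 and -0.02, and over all features -0.02, 0.09 and 0.03. W45 replicate 1 was on slide 1 and the other W45 arrays on slide 3, so array and slide cannot be told apart here. On slide 1, W15 replicate 3 had -0.14 and TTX replicate 1 had 0.08 for the GABA genes.

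Between 45 and 15 min, a comparison that shares its W15 arrays with the one above and is therefore not separate from it, the medians were 0.02 for the glutamate group and 0.13 for the GABA group, beside 0.00 over all features. Fold changes were above 0 for 17 of 26 and 12 of 16 genes, and for 50.3% of all features. Gabra3 had 0.47 ± 0.26 (limma, adjusted p = 0.788). It was 0.77 without W45 replicate 1, where its adjusted p of 0.160 was the lowest of any receptor gene in any fit. On slide 3 alone it was 0.64 and on slide 1 alone 0.15. Gabrg1 had 0.43 ± 0.25, Gabra4 0.36 ± 0.29, Grin2b 0.27 ± 0.21 and Grm7 0.22 ± 0.24. Gria1 had -0.50 ± 0.42, the lowest of the glutamate group. The GABA median was 0.03 to 0.23 with any 1 array left out, and -0.13 on slide 1 alone. Across both families only Grid1, a delta receptor gene, had W45 arrays that did not overlap W15 (0.17 ± 0.12, higher). Of all features 8.14% did not overlap, that is 3.98% higher and 4.16% lower.

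Partners of the receptors, from lists chosen for their known roles, were also not called, in any of the 3 comparisons. Of the AMPA receptor partners, the auxiliary subunits and scaffolds that carry the channel to synapses, 12 of 16 were tested, with a median of 0.15 at 15 min and 0.13 at 45 min. Cacng2 (stargazin) had 0.40 ± 0.26 at 15 min and -0.30 ± 0.26 from 15 to 45 min, Cacng4 0.35 ± 0.17 and 0.26 ± 0.17 at the 2 times against TTX, the cornichon Cnih2 0.29 ± 0.14 at 45 min, and Gsg1l -0.38 ± 0.22 from 15 to 45 min. Of 18 partners of NMDA, kainate and metabotropic receptors, all tested, the medians were 0.08 and 0.12. Nos1, the neuronal nitric oxide synthase tethered to the NMDA receptor, had 0.40 ± 0.13 at 45 min (limma, adjusted p = 0.672). The scaffold Dlgap1 had 0.31 ± 0.19 and 0.38 ± 0.19, the kinase Camk2a 0.34 ± 0.23 at 15 min, and from 15 to 45 min Dlg4 (PSD-95) had -0.19 ± 0.15 and Neto2 0.17 ± 0.18.

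Of 17 GABA receptor partners 15 were tested, with medians of 0.07 and 0.16. Gphn (gephyrin), the main scaffold of inhibitory synapses, named for that role after its values were seen, had 0.05 ± 0.14 and -0.15 ± 0.14. Lhfpl4 had 0.32 ± 0.20 at 15 min, and the GABA-B auxiliary subunits Kctd16 and Kctd8 had 0.36 ± 0.30 and 0.30 ± 0.43 at 45 min. Kctd16 had 0.29 ± 0.30 at 15 min. Ubqln1, which stabilises GABA-A receptors inside the cell, had 0.46 ± 0.16 from 15 to 45 min (limma, adjusted p = 0.74), and Trak1 0.34 ± 0.17. For the transmitters themselves, the 8 genes of glutamate release, uptake and synthesis had medians of 0.12 and 0.04 against TTX. Glul had -0.29 ± 0.13 at 15 min and 0.29 ± 0.13 from 15 to 45 min. Slc17a8 had 0.19 ± 0.35, 0.42 ± 0.35 and 0.22 ± 0.35 in the 3 comparisons, and Slc1a2 0.18 ± 0.11 at 45 min. The 6 genes of GABA synthesis, release and uptake had medians of -0.04 and 0.19. Slc6a11, a GABA transporter, had 0.52 ± 0.24 at 15 min. Gad1, which makes GABA, had 0.26 ± 0.15 at 45 min and 0.41 ± 0.15 from 15 to 45 min (limma, adjusted p = 0.745), and Abat, which degrades it, 0.27 ± 0.20 and 0.44 ± 0.20.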

How the data were processed

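Per the file headers, each file holds spot intensities of the Cy3 channel of 1 Agilent rat array (design 014879), with probe positions in rn3. The scanner software was Feature Extraction 9.5.3.1 with protocol GE1-v5_95_Feb07. The processed signal used is an intensity after background subtraction by that software, not scaled from one array to another. The series' deposited table holds the same intensities, with a largest difference of 0. Cy3-labelled cRNA came from 500 ng of RNA, per the labels' protocols.

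Of 45018 spots per array, 1639 control spots were dropped, spots marked as outliers (49 to 111 per array) were set to missing, and probes in 10 spots were averaged. A probe missing on more than 1 array was left out. Values are log2 signal minus the array's 75th percentile. Each name was represented by its brightest probe and tested when that probe was well above background on every array of at least 1 group (25805 features; 9755 were not tested for want of such a group). All 9 arrays were fitted with limma 3.58.1 (R 4.3.3, package data.table, version 1.17.8), a mean per group, 6 residual degrees of freedom (median 9.22 in all), two-sided, adjusted by Benjamini-Hochberg. On simulated data for 45 min against TTX (25759 features, 100 changed by each size), 40% of changes of 1 and 86% of changes of 2 on the log2 scale were recovered, with 8 false calls. The simulated noise was normal and independent between arrays, without slides or deviations shared by same-numbered arrays. These figures therefore need not hold for the real arrays. Figures used matplotlib 3.10.9 in Python 3.11.15.

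Same-numbered arrays deviated together in every pair for W15 and TTX (correlations 0.23 to 0.39) and for W45 and TTX (0.12 to 0.37), so numbers pair these groups by this check of the data, not by the labels; for W45 and W15 1 pair had 0.063. Alternatives were normexp (offset 50), no or quantile scaling, other filters, the mean of all probes, slide and replicate blocks, only the groups compared, a trended robust spread, and each array left out; keeping outlier-marked spots was added after seeing the data. Some members and list genes are not reported here, though they count in the totals and medians. The members and lists were chosen with earlier results of these data known. Named are 15 fixed members, those called or with unadjusted p under 0.05, the 3 largest changes per family and comparison, the 2 largest per partner list, members not tested, and 4 controls; others are said to be named after their values were seen, or because their groups did not overlap.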

Additional observations from a re-analysis of the deposited data

How the results depend on the processing

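In all 22 alternative fits with a test, 0 glutamate and 0 GABA receptor genes were called. With the replicate block, used because same-numbered arrays deviated together against TTX, 0 receptor genes were called, and the family medians and all calls of receptor genes were as without it. Family medians moved more. Without scaling between arrays they were -0.11 (glutamate) and -0.27 (GABA) at 15 min, and -0.19 and -0.28 at 45 min, a shift that is the same for every gene and so says nothing about the receptors. With normexp they were 0.19 and 0.034 at 15 min, and the glutamate median between 45 and 15 min was -0.13, beside -0.20 over all features. With slide as a fixed block the GABA median at 15 min was -0.20, on slide 1 alone it was -0.18, and on slide 1 alone the GABA median between 45 and 15 min was -0.13; the cause was not tested. With any 1 array left out, the GABA median at 15 min ranged from -0.13 to 0.077, the highest without W15 replicate 3. Of the 66 fold changes of the 22 genes named by the rule, 16 kept their sign under every alternative run. Over all features, calls were 6, 54 and 34 for the 3 comparisons in the order 15 min and 45 min against TTX and 45 against 15 min. They were 2, 23 and 15 with normexp, 6, 31 and 24 without scaling, 0, 22 and 25 with slide as a fixed block, 9, 31 and 19 with only the groups compared, 6, 36 and 20 with no filter on dim probes, and 10, 57 and 46 with a trended robust spread. They were 0 between 45 and 15 min on slide 3 alone, where the 4 arrays are fewer. With any 1 array left out they ranged from 2 to 8, from 29 to 167 and from 18 to 179, the highest without W45 replicate 1 for the last 2. The arrays whose loss moved a count by over 1.5 times were TTX replicates 2 and 3 and W15 replicate 2 at 15 min (2, 3 and 2), TTX replicates 1 to 3 and W45 replicates 1 and 2 at 45 min (29, 29, 32, 167 and 30), and TTX replicate 2, W15 replicates 1 and 2 and W45 replicates 1 to 3 between the times (22, 18, 19, 179, 18 and 66). The 3 arrays per group limit what could be called, and signal near background limits Gabrr2, Gabrg3 and the 4 GABA genes not tested.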

Other observations

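Glycine receptors, the other chloride channels of fast inhibition, were on the array beside the GABA receptors. Of their 5 genes 3 were tested, and none was called by limma. Glra1, an alpha subunit best known from spinal cord, had a log2 fold change of -0.81 ± 0.49 at 15 min and -0.86 ± 0.49 at 45 min against TTX (SE, n = 3 per group). Glrb, the beta subunit that binds gephyrin, had -0.62 ± 0.32 and -0.20 ± 0.32, and 0.42 ± 0.32 from 15 to 45 min. Glra2, the alpha subunit of immature cortex, had -0.09 ± 0.16 and 0.02 ± 0.16. The median of the 3 was -0.62 at 15 min, a value that rests on so few genes that it is given as a description.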
